A study of Mus musculus with 15 samples.

Results

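Apoe-high Atg7-deleted microglia are the sorted forebrain cells of the cKO library whose share of UMIs (unique molecular identifiers, 1 per captured mRNA) from Apoe was highest. Cells were eligible with at least 500 detected genes, at least 2000 UMIs and at most 10% of UMIs from mitochondrial (mt-) genes. Of 9840 deposited cKO cells 7298 were eligible, and the 10% with the most Apoe UMIs per 10000 UMIs were taken, 729 members against 6569 other cells. Members were thus chosen by their measured Apoe share, which was left out of all sums and is given only as a description. The lowest member had 6.764 and the highest other cell 6.761 Apoe UMIs per 10000. The member median was 16.8 per 10000, or 9 Apoe UMIs in a cell, and the highest member reached 1928 per 10000. Among the other cells 78.9% had no Apoe UMI. The members are a range cut from a graded quantity, with cells lying on both sides of the limit.

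The study deleted Atg7, the E1-like enzyme needed for LC3 lipidation during autophagosome formation, from microglia by tamoxifen. The cKO mice were ATG7FF;Cx3cr1CreER and the controls ATG7FF without Cre, all C57BL/6, all given 1.5 mg tamoxifen at 2 months of age and sampled at 8 months. CreER is knocked in at Cx3cr1, so that locus is altered in cKO mice. Microglia were enriched on Percoll and sorted as CD11b-high, CD45-low, with 4 cKO forebrains pooled into 1 library and 3 control forebrains into another, neither carrying 5xFAD. Whole forebrains of 5xFAD mice, which form amyloid plaques from human transgenes, gave 13 bulk libraries, 6 from ATG7FF;5xFAD and 7 from Cx3cr1CreER;ATG7FF;5xFAD animals.

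ApoE is a lipid carrier protein that moves cholesterol and phospholipids between cells. In the brain it is made mainly by astrocytes. Microglia in a resting, homeostatic state make little of it and induce it strongly in the disease-associated state, a programme that also brings up Cst7, Lyz2, Lpl and lysosomal genes and lowers P2ry12, Cx3cr1 and Tmem119. Border macrophages of the meninges and vessels, and choroid plexus epithelium, can carry Apoe RNA as well.

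The cKO library held 40701821 UMIs and the control library 9314315 over 6633 cells, of which only 511 were eligible. Both libraries shared 22 cell barcodes, 2 of them among the members, and none was eligible in both. Members had a median of 5243 UMIs and 2236 genes, other cells 4858 UMIs and 2184 genes. Their mt- share was also higher, with a median of 1.10% against 0.953%. Doublets were not removed. Each genotype is 1 library, so cell values have no replicate check and no test. Intervals are exact 95% intervals that cover counting error only.

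Members carried the markers of microglia. All 10 markers on that list were present in the median member and in the median other cell, and 727 of 729 members held at least 2. Together the 10 markers summed to 23263 CPM (UMIs scaled to a total of 1000000, with Apoe excluded) in members and 25487 in other cells, and each of the 10 was lower in members. Summed border macrophage markers stood at 253 against 246 CPM and monocyte markers at 25.8 against 19.3 CPM. At least 2 of the 14 border markers were present in 86 members (11.8%) and in 523 other cells (7.96%). This count was not particular to the border list. At least 2 oligodendrocyte markers were present in 11.4% of members and 8.30% of other cells, and at least 2 B cell markers in 17.1% and 16.8%. The 3 border markers with at least 10 CPM, 2 higher and 1 lower in members, had a median log2 ratio of 0.35. Nearly all members thus held microglia markers, and some of the members held border macrophage markers or markers of other cell type lists.

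A small set of cells was rich in Ttr, which encodes transthyretin, the main secreted protein of choroid plexus epithelium. Only 9 members held 10 or more Ttr UMIs, from 15 to 3272 each, and they carried 11564 of the members' 11605 Ttr UMIs and 639 of their 642 UMIs of Enpp2 (autotaxin, also abundant in choroid plexus). In these 9 cells the microglia markers summed to 6023 CPM, against 23554 CPM in the other 720 members. A further 14 such cells lay among the other cells. Values without all 23 Ttr-rich cells stand beside each result they move, a comparison chosen after seeing the data.

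Few genes set the members apart by size of difference. Of 8529 genes with at least 10 CPM over all eligible cells, 23 were at least 1.5-fold higher in members (0.27%) and 50 at least 1.5-fold lower (0.586%), with a median log2 ratio of -0.06. By any amount 34.1% of the 8529 were higher in members, and the counts for gene lists are to be read beside that share. Without the Ttr-rich cells these were 16 (0.188%) and 53 (0.622%) of 8527. Scaled by the median ratio in place of total UMIs, 33 were higher and 26 lower. The counts moved with the limit for membership, to 65 and 244 when the top 5% were taken and to 12 and 5 with the top 20%.

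Among the 15 genes named as highest, most kept their ratio without the Ttr-rich cells. Cst7, encoding the cathepsin inhibitor cystatin F and a hallmark of the disease-associated state, stood at 46.7 CPM in members and 19.4 CPM in other cells, a ratio of 2.40 (2.03 to 2.83). Lyz2, which encodes lysozyme, stood at 1818 against 1211 CPM, a ratio of 1.50 (1.46 to 1.54). Cd63, a tetraspanin of late endosomes and exosomes, stood at 779 against 521 CPM, a ratio of 1.49 (1.44 to 1.55). Pla2g7, a secreted phospholipase that inactivates platelet-activating factor, had a ratio of 2.09 (1.77 to 2.45). For all 4 the ratio without Ttr-rich cells lay close by, at 2.42, 1.52, 1.49 and 2.03. The chemokines Ccl3 (245 against 146 CPM, ratio 1.68, 1.57 to 1.80) and Ccl4 (192 against 119 CPM, ratio 1.61, 1.49 to 1.74) were higher as well, as was Ifi204, an interferon-inducible DNA sensor, at 22.6 against 9.36 CPM (ratio 2.41, 1.89 to 3.05). Vcam1, an adhesion molecule gene, was at 2.11-fold (1.80 without Ttr-rich cells). Cpq, a lysosomal carboxypeptidase, was at 1.87-fold, the metallothionein Mt2 at 1.74-fold and the neuropeptide gene Cck at 1.77-fold.

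The other 4 named genes were lower or rested on few UMIs without the Ttr-rich cells. Ttr itself had a ratio of 37.1 with those cells and 0.76 without them, and Enpp2 34.9 with and 1.70 without, the latter from 3 UMIs in members. S100a1 moved from 2.35 to 1.47 and Pcp4 from 2.18 to 1.06.

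**Figure D1:**
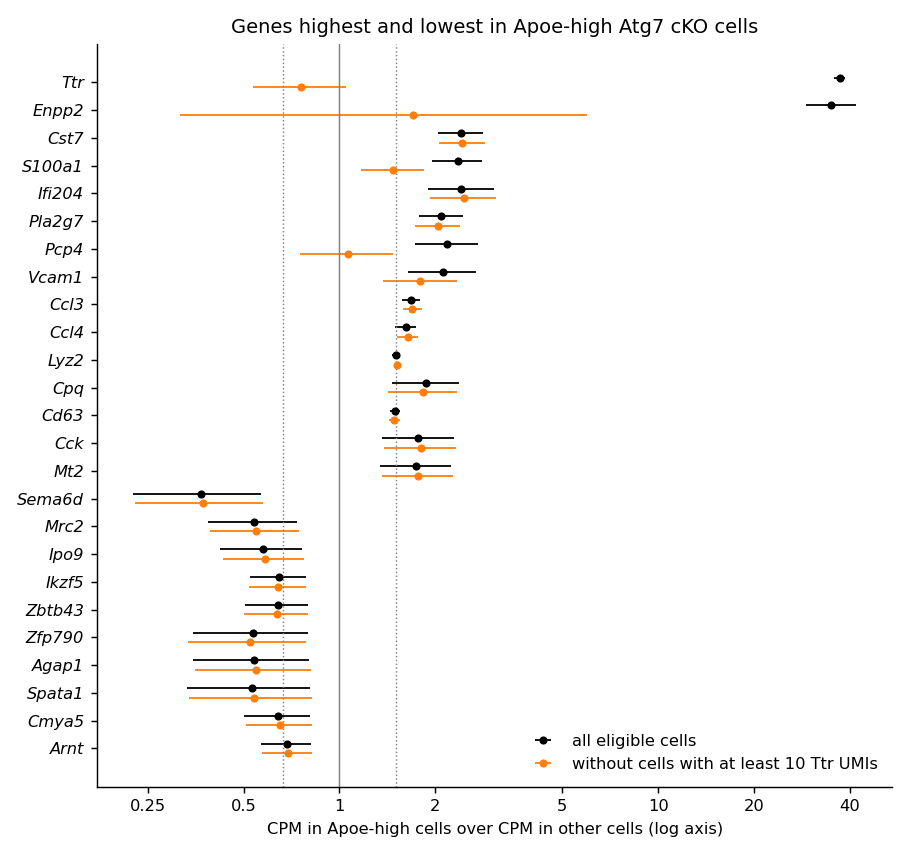
Ratio of CPM in Apoe-high cells to CPM in other cells (log axis) for the 15 genes named as highest and the 10 named as lowest, with exact 95% intervals; black points are all eligible cells, orange points leave out cells with at least 10 Ttr UMIs, and dotted lines mark 1.5-fold. Cst7, Ifi204, Pla2g7, Ccl3, Ccl4, Lyz2 and Cd63 lie at nearly the same ratio in both sets, while Ttr drops from 37.1 to 0.76.

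Genes lower in members were mostly of low abundance and shared no list. Sema6d, a transmembrane semaphorin, had the lowest ratio at 0.37 (0.22 to 0.57), from 5.16 against 14.1 CPM. Mrc2, a collagen-binding endocytic receptor, stood at 0.54 (0.39 to 0.73) and the nuclear import receptor gene Ipo9 at 0.57 (0.42 to 0.76). The zinc finger genes Ikzf5 and Zbtb43 were at 0.64 each and Zfp790 at 0.54. Arnt, the shared partner of hypoxia-inducible factors, stood at 0.68 (0.57 to 0.81). Agap1, Spata1 and Cmya5 lay between 0.53 and 0.64.

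The differences in abundant genes were shifts across many cells with wide overlap. Lyz2 had a median of 15.4 UMIs per 10000 in members and 9.39 in other cells, and 70.4% of members lay above the other cells' median. Cd63 medians were 6.63 and 4.15 per 10000, with 68.3% of members above. Cx3cr1, the fractalkine receptor, had medians of 24.0 and 28.0, with 35.8% of members above, and P2ry12, the purinergic receptor of surveying microglia, 29.9 and 34.3, with 37.6% above. Trem2, the lipid-sensing receptor upstream of the disease-associated programme, differed little, at 25.9 and 24.2, with 56.9% above. Every one of these genes ranged from 0 to far above the median in both sets of cells.

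Within the eligible cells the same genes were graded with the Apoe share. Since most non-members had no Apoe UMI, cells were placed in 5 grades of that share, a choice made after seeing the data: 5176 cells with none, 1379 with at least 1 but below the limit, the lowest 360 members, the next 288, and the highest 72. Median Apoe shares were 0, 2.32, 10.3, 29.3 and 176 per 10000. The median UMI count stayed between 4748 and 5331, while the median mt- share went from 0.940% through 1.01%, 1.03% and 1.13% to 1.44%. Ttr-rich cells were left out of all grades, and choroid plexus markers then summed to 16.6 CPM in the highest 72.

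Lyz2, Cd63, Cst7, Pla2g7 and Ccl3 were named as highest in members, so higher levels in members than in other cells follow from that choice. Cst7 was also named as high in the highest 72. Across these grades Lyz2 stood at 1178, 1323, 1529, 1897 and 3332 CPM. Cd63 followed the same order at 516, 539, 666, 830 and 1124 CPM. Cst7 stood at 18.4, 22.9, 33.7, 42.4 and 144 CPM, so most of its span lay between the last grades. Pla2g7 was flat below the limit (22.5 and 22.9 CPM) and then stood at 31.8, 44.9 and 130 CPM. Ccl3 reached its higher level one grade earlier, at 145, 149, 174, 321 and 334 CPM. Lpl, lipoprotein lipase of the same programme, stood apart in the last grade, at 30.2, 27.3, 33.8, 39.3 and 99.4 CPM. P2ry12 was flat below the limit and lower above it, at 3583, 3597, 3436, 3106 and 1991 CPM. Cx3cr1 was lower in every next grade, at 2871, 2824, 2593, 2513 and 2137 CPM. Sox4, a transcription factor gene, stayed near 400 CPM in the first 3 grades (393, 400 and 420) and then stood at 296 and 160. Sox4 was named for being low in the highest 72, so its last value follows from that choice. Fos, an immediate early gene that tissue dissociation can induce, had no order, at 353, 343, 305, 304 and 442 CPM.

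**Figure D2:**
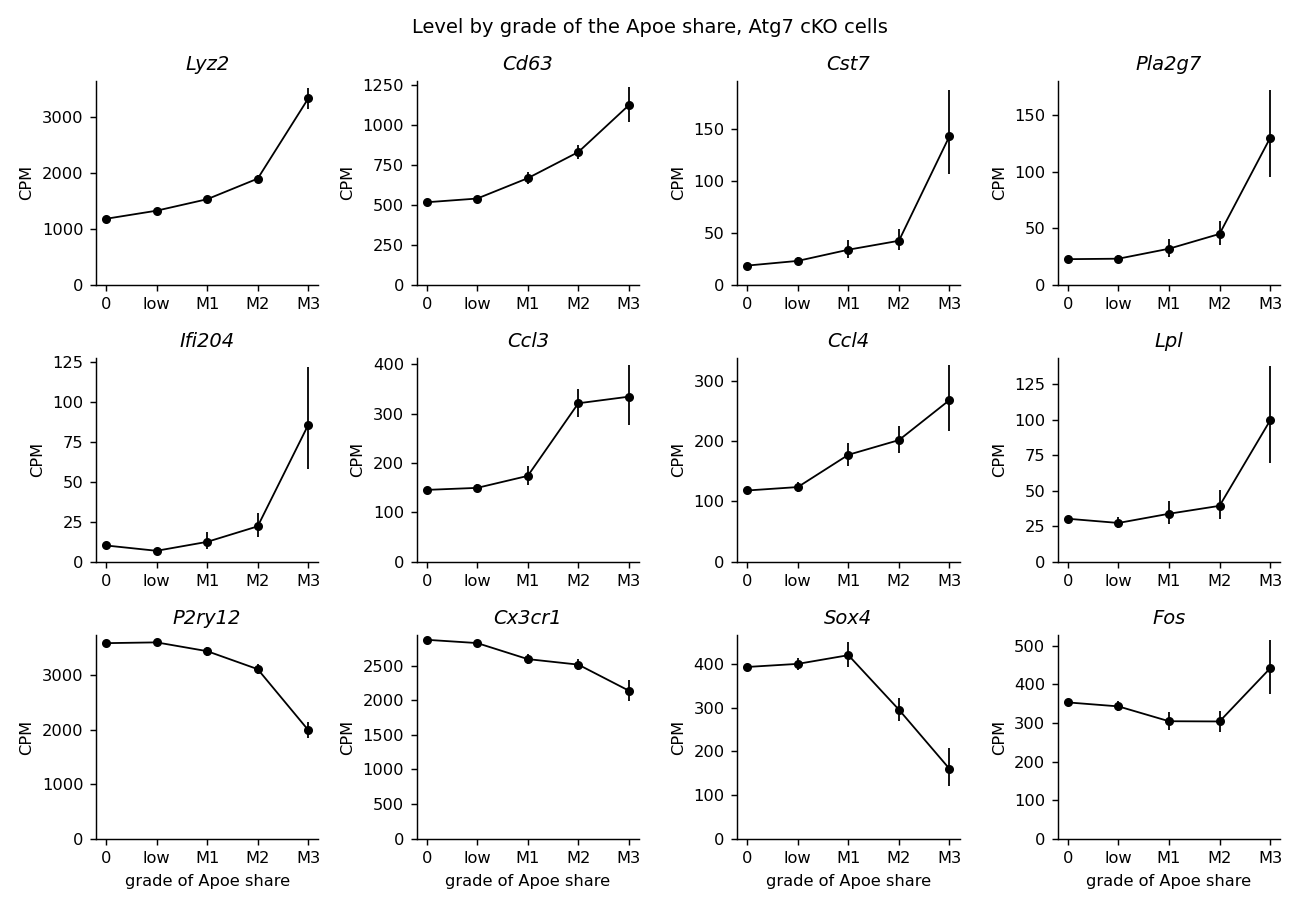
CPM of 12 genes over 5 grades of the Apoe share in the cKO library, where 0 is no Apoe UMI, low is below the limit for members, and M1, M2 and M3 are the lowest 360, next 288 and highest 72 members; bars are exact 95% Poisson intervals (counting error only). Lyz2 and Cd63 are higher in every next grade, Cst7, Pla2g7, Ifi204 and Lpl stand out in M3, and P2ry12 is lowest there at 1991 CPM. Of the genes drawn, Lyz2, Cd63, Cst7, Pla2g7, Ifi204, Ccl3 and Ccl4 were named for high levels in members. Sox4 was named for its low level in M3, and Cst7 and Ifi204 also for high levels there.

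The 250 bases upstream of the annotated start are shown for 4 of the genes graded with the Apoe share, read from RefSeq on GRCm38.p6 in the direction of transcription, to set the promoters of these co-varying genes side by side. Capitals mark GAGGAA or its reverse complement TTCCTC, a core of sites for PU.1, the lineage factor of microglia and macrophages.
Lyz2, chr10:117282273-117282522, minus strand: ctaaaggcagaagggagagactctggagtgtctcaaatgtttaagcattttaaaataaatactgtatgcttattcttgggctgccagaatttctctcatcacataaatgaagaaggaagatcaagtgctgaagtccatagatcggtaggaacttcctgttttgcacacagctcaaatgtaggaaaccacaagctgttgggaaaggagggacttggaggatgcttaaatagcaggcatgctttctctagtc
Cst7, chr2:150570165-150570414, plus strand: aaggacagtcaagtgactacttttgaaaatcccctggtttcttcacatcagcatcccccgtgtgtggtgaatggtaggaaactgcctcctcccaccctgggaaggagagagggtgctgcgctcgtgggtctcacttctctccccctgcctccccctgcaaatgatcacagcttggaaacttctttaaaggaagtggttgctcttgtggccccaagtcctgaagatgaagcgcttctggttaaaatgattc
Ccl3, chr11:83649379-83649628, minus strand: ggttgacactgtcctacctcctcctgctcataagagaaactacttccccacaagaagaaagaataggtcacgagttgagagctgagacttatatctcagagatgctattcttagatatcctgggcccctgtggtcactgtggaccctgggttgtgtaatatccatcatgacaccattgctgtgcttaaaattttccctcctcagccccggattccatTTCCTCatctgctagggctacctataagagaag
Cd63, chr10:128909095-128909344, plus strand: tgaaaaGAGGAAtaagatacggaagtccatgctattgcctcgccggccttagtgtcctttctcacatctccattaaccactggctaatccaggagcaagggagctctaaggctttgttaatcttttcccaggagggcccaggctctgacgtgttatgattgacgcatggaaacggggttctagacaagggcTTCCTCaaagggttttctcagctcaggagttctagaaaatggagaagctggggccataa
Counted on both strands, the Lyz2 and Cst7 windows held no match, the Ccl3 window 1 (33 bases before the start) and the Cd63 window 2. Of 32851 RefSeq promoter windows of this length, 23.3% held the motif. The E-box CACGTG read by the lysosomal regulator TFEB was in none of the 4, and in 6.02% of all windows. The window of Pla2g7, also graded, was read as well, held no match to either motif and is not printed. A match describes letters only, and says nothing of binding. On the same assembly Lyz2 (ENSMUSG00000069516) spans 117277331 to 117282321 of chromosome 10 and Cst7 (ENSMUSG00000068129) 150570415 to 150578944 of chromosome 2. These spans are from GENCODE, and the Lyz2 window, placed by its RefSeq start, lies partly inside the GENCODE gene.

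Genes of the disease-associated programme were higher as a group. All 20 genes of this list with at least 10 CPM were higher in members, also under median-ratio scaling, with a median log2 ratio of 0.29 beside -0.06 for all genes measured. They covered a wide range, from Cst7 (2.40) and Lyz2 (1.50) to Ctsz (1.07) and Cd9 (1.05), and only Cst7 and Lyz2 reached 1.5-fold. Of the other list genes, Axl, Igf1, Itgax and Lgals3 lay below the limit of 10 CPM with 45, 46, 35 and 22 UMIs in members. Spp1 and Gpnmb, abundant in plaque-associated microglia, had 2 and 0 UMIs in all members. Trem2 itself stood at 2698 against 2519 CPM, a ratio of 1.07 (1.05 to 1.09), and Lpl at 1.40 (1.18 to 1.65).

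Homeostatic genes were lower by small amounts. Of 25 measured, 23 were lower in members (21 under median-ratio scaling), where 65.9% of all genes were not higher, with a median log2 ratio of -0.14, and none reached 1.5-fold. Tgfbr1, a receptor chain for the TGF-beta that maintains microglial identity, was among the lowest at 0.87 (0.84 to 0.90), with Cx3cr1 at 0.87 (0.85 to 0.89). Cst3 (1.02) and Crybb1 (1.01) were the 2 that were not lower.

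Ribosomal and mitochondrial transcripts differed between the same cells. All 33 measured cytosolic ribosomal protein genes were higher in members, with a median log2 ratio of 0.30, as were all 13 mitochondrial transcripts, with 0.33, or 0.21 without the Ttr-rich cells. These shifts are as large as that of the disease-associated list, and their part in it was not tested. When only cells with at most 5% mt- UMIs were kept, 16 genes were at least 1.5-fold higher and 46 lower.

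Interferon and chemokine genes were higher in part. Of 13 measured type I interferon response genes 10 were higher (median log2 ratio 0.16), led by Ifi204 (2.41) and Ifit3 (1.33, 1.02 to 1.70), while Trim30a (0.97) and Cxcl10 (0.91) were not. The interferon median was -0.01 when only cells with at least 5000 UMIs were ranked. Among 21 chemokine and NF-kB genes 14 were higher (median 0.13), with Ccl3 and Ccl4 the only 2 at 1.5-fold or more. Of 9 MHC class II genes 4 were measured, 2 higher and 2 lower: Cd74, the invariant chain, at 1.56 (1.32 to 1.83), H2-Oa at 1.35 (1.11 to 1.64), and the peptide-loading genes H2-DMa and H2-DMb1 at 0.96 each. In the highest 72 members 3 of these 4 were lower. Glycolysis genes were higher in 11 of 14 (median 0.20), with the kinase gene Pgk1 highest at 1.35 (1.19 to 1.52) and the hexokinase gene Hk1 lowest at 0.78 (0.58 to 1.01).

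Lipid handling, the textbook function of ApoE, showed little difference over all members. LXR targets and sterol efflux genes, the cholesterol export programme that includes Apoe, had a median log2 ratio of -0.02 over 15 genes, 7 higher and 8 lower, or 12 higher and 3 lower under median-ratio scaling. Cholesterol synthesis genes had a median of -0.02 over 10, and lipid uptake and droplet genes 0.07 over 12. In the highest 72 members 11 of 15 LXR genes (median 0.17) and 9 of 12 lipid uptake genes (median 0.16) were higher. Cholesterol synthesis genes were higher there in 4 of 10 (median -0.12), beside 38.6% of all genes and a median of -0.14. Of the genes that neighbour Apoe on its chromosome only 3 of 7 were measured. Apoc1, an apolipoprotein gene of that cluster, had 10 UMIs in members and 1 in other cells, 7 of the 10 in the highest 72.

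Autophagy and stress lists differed little between members and other cells. All eligible cells come from cKO mice, so these values compare cells of the cKO library with each other. Atg7 stood at 16.7 against 17.4 CPM, a ratio of 0.96 (0.74 to 1.23). The 3' tags counted need not lie in the deleted exons, and this value does not check the deletion. Autophagy machinery genes had a median log2 ratio of -0.04 over 24, autophagy receptors 0.05 over 10 and lysosomal hydrolases and membrane proteins 0.05 over 34, with 23 higher. Next to Cd63, the highest lysosomal gene was Npc2, which hands cholesterol to the lysosomal membrane, at 1.17 (1.12 to 1.21), and the protease gene Lgmn was at 0.93 (0.91 to 0.95). ER chaperones were lower in 17 of 19 (13 under median-ratio scaling), with a median of -0.12, and immediate early genes in 12 of 17 (median -0.11), a share near the 65.9% of all genes. Among the latter the transcription factor genes Jun (2136 against 2572 CPM, ratio 0.83, 0.81 to 0.85) and Egr1 (0.85, 0.81 to 0.90) were lowest and Ier3 was highest at 1.24 (1.13 to 1.35). Cdkn1a, the p53 target that encodes the cell cycle inhibitor p21, had a ratio of 0.96 (0.85 to 1.08).

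**Figure D3:**
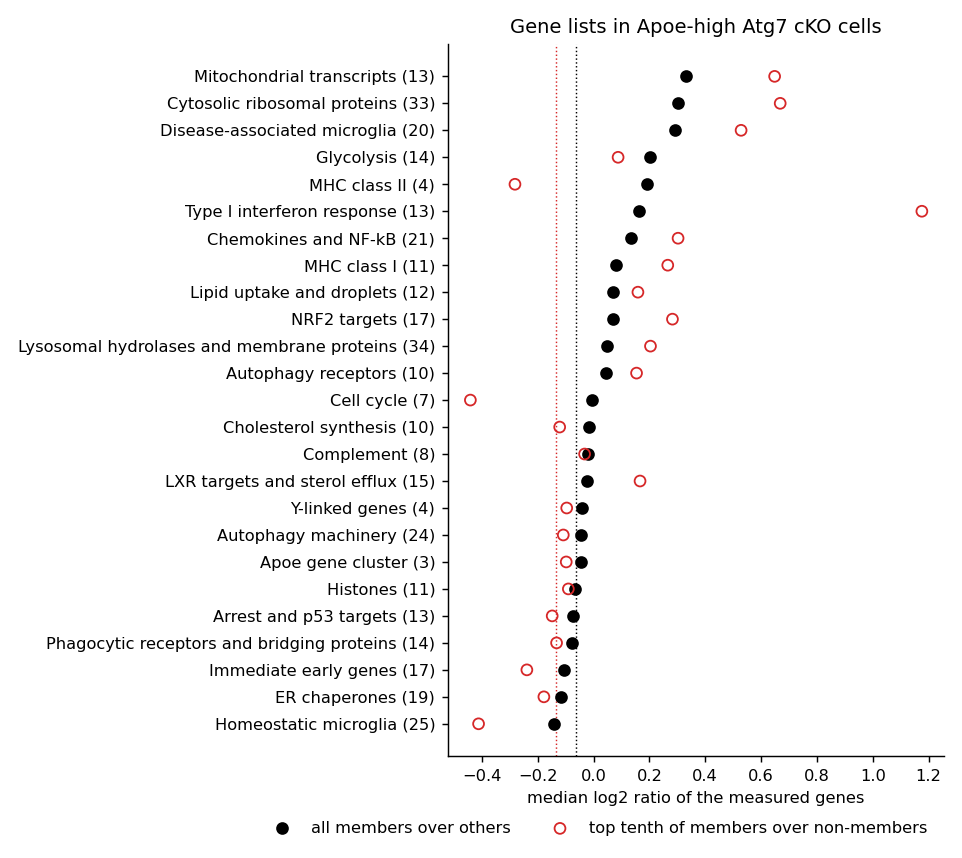
Median log2 ratio of the pathway and cell state lists, without the cell type marker lists, in all Apoe-high members over other cells (black) and in the highest 72 members over the non-members without Ttr-rich cells (red circles), with the number of measured genes in parentheses; dotted lines are the medians over all genes measured, -0.06 and -0.14. The disease-associated list lies to the right (0.29 and 0.53) and the homeostatic list to the left (-0.14 and -0.41) in both, and of the lists drawn the interferon list is farthest to the right in the 72, at 1.18.

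The highest 72 members, taken from the 720 that were not Ttr-rich, differed from non-members in many more genes. Against 6555 non-members without Ttr-rich cells, 625 of 8535 genes were at least 1.5-fold higher (7.32%) and 1587 at least 1.5-fold lower (18.6%). With so few cells (362192 UMIs in sum) many of these ratios rest on few UMIs, and the median log2 ratio was -0.14. The disease-associated list had a median of 0.53 with 19 of 20 higher, the interferon list 1.18 with 12 of 13 higher, and the homeostatic list -0.41 with 24 of 25 lower, where 38.6% of all genes were higher and 61.4% were not. Ribosomal protein genes stood at 0.67 and mitochondrial transcripts at 0.65, so these too were shifted further.

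The genes named for these 72 needed at least 10 UMIs there and no minimum elsewhere, so a high level here beside a low one in other cells follows from the rule, and the values only describe them. Wfdc17, a secreted protein gene of activated macrophages, stood at 179 CPM against 3.44 CPM in non-members, with 65 UMIs spread over 15 cells. Fabp5, a fatty acid binding protein gene of the disease-associated list, stood at 116 against 2.41 CPM, with 42 UMIs in 11 cells. Ms4a7, a marker of border macrophages and of infiltrating macrophages, had 27 UMIs in 9 cells, or 74.5 CPM, while all non-members held 4 UMIs. Lgals3, encoding galectin-3, stood at 41.4 against 1.94 CPM, Axl, a receptor for dying cells, at 44.2 against 2.97 CPM in 15 cells, and Cybb, the catalytic subunit of the phagocyte oxidase, at 58.0 against 3.03 CPM. The stress cytokine gene Gdf15 (33.1 against 1.44 CPM), the growth factor gene Igf1 (38.7 against 3.12 CPM) and the iron oxidase gene Cp (30.4 against 0.79 CPM) were higher from 14 UMIs or fewer each. Rab7b, Lilrb4a, Arhgap15 and Oasl2 were the others named as highest, at 33.1, 58.0, 41.4 and 33.1 CPM against 0.26, 4.47, 3.79 and 3.85. Cst7 was at 7.37-fold (5.45 to 9.79) and Ifi204 at 9.15-fold (6.11 to 13.3). Lowest in the 72 was Gtpbp1, with no UMI against 26.2 CPM in non-members. Hist1h2ac (0.26), Khdrbs3 (0.25), Upk1b (0.33) and Sox4 (0.41) were also lower, and Mthfd2, Nup153, Il7r, Prpf38a and Mettl6 held 1 to 3 UMIs each.

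Border macrophage markers moved with this grade. At least 2 of the 14 markers were present in 21 of the 72 (29.2%), against 86 of 729 members (11.8%) and 523 of 6569 other cells (7.96%). The 3 measured markers had a median log2 ratio of 1.35. Their summed level over all 14 was 433 CPM in the 72, and 226 of that was Stab1, which non-members held at a similar level (ratio 1.03). Mrc1 stood at 63.5 against 12.2 CPM in non-members and Ms4a7 at 74.5 against 0.12 CPM, while Lyve1, Cd163, F13a1, Cd209f, Cbr2, Clec10a and Ccl8 had no UMI in any of the 72. Each of the 72 held at least 6 of the 10 microglia markers, with a median of all 10. Without the cells holding at least 2 border markers, 51 of the 72 remained. Ms4a7 is itself one of those markers, so its 3 UMIs in the 51 follow from leaving such cells out. Wfdc17, which is not, was at 7.79-fold, down from 52.1-fold, and Cp at 5.10-fold, down from 38.2-fold. Lgals3 stood at 29.0-fold, Fabp5 at 39.2-fold, Axl at 13.9-fold, Ifi204 at 10.3-fold and Cst7 at 6.38-fold in the 51 over non-members without such cells. All of these genes were named for high levels in the 72, which include the 51. Higher levels in the 51 thus follow in part from that choice and say nothing of the cell type they come from. The comparison without border marker cells was chosen after seeing the data.

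Members overlapped to different degrees with the top 10% of cells by other genes, where a ranking unrelated to Apoe would hold about 10% of the members. Lyz2, Ccl3, Ccl4, Cst7 and Ifi204 were named as highest in these members. An overlap above 10% with rankings that hold them thus follows in part from that choice, and the values only describe it. Of the 729 members 158 (21.7%, 18.7 to 24.8) were also among the 729 cells with the highest Lyz2 share, as were 36 of the highest 72. The overlap with the 729 highest for Ccl3 and Ccl4 together was 108 (14.8%, 12.3 to 17.6) and for Cst7, Ccl6 and Lpl 110 (15.1%, 12.6 to 17.9). For the interferon list it was 90 (12.3%, 10.05 to 14.96), an interval whose lower end is close to 10%. Of the highest 72, these 3 rankings held 20, 16 and 17. With the immediate early list the overlap was 49 members (6.72%, 5.01 to 8.79), and 5 of the highest 72. A Cdkn1a UMI was present in 128 members (17.6%) and in 16.7% of other cells.

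Members were spread over all clusters of the cKO library. Clustering without Apoe gave 5 clusters, called by number because their leading genes are states of the same marker-positive cells. Cluster 2, led by Lgals3, Wfdc17, Il1b, Lilrb4a and Ccl5, held 267 members, 13.7% of its 1942 cells (12.2 to 15.4), and 40 of the highest 72. The largest, cluster 0, led by Adamts1, Egr1 and Fos, held 218 members, 7.46% of its 2923 cells (6.53 to 8.47), and only 5 of the 72. Cluster 1, led by Cd22, Cytip and Lyz2, held 170 of 1970 (8.63%) and 20 of the 72. Cluster 3, led by the proliferation genes Hmmr, Top2a and Mki67, held 54 of 349 (15.5%), and cluster 4, led by Enpp2 and Ttr and containing 20 of the 23 Ttr-rich cells, 20 of 114 (17.5%). The largest share of members in 1 cluster was 36.6%. It was 89.8% when a lower resolution merged the cells into 3 clusters and 22.9% with 10 clusters.

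**Figure D4:**
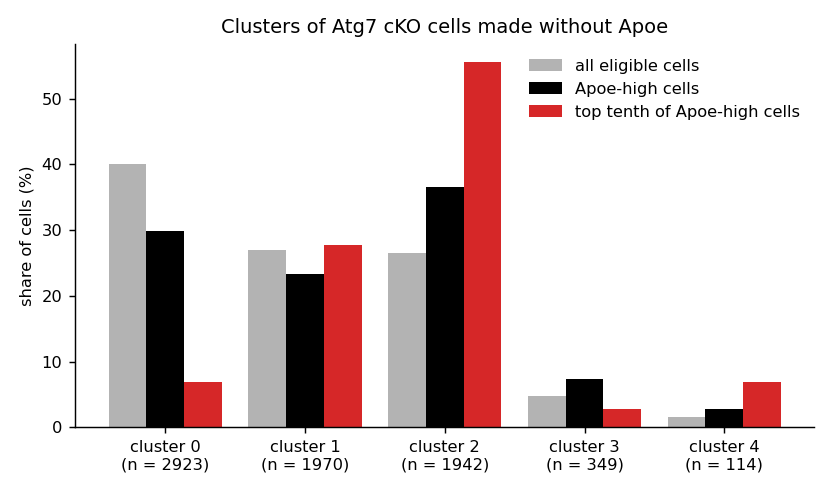
Share of all eligible cKO cells (grey), of Apoe-high members (black) and of the highest 72 members (red) in each of 5 clusters made without Apoe, in percent of each set. Cluster 2 holds 26.6% of eligible cells, 36.6% of members and 55.6% of the 72.

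The same rule in the control library gave 51 members of 511 eligible cells, with a median of 2281 UMIs against 5243 in cKO members. Ttr-rich cells were 5 of these 51, and Ttr summed to 18736 CPM in control members. Of the 15 genes named as highest in cKO members, 9 were also higher in control members, and 8 without the Ttr-rich cells, where 42.4% and 43.7% of all measured genes were. Cd63 was at 1.52 (1.18 to 1.93) in control members and 1.36 (1.02 to 1.77) without the Ttr-rich cells. Without those cells Lyz2 was at 1.34 (0.92 to 1.89), Ccl3 at 1.29 (0.91 to 1.78) and Ccl4 at 1.05 (0.69 to 1.55), and these intervals include 1. With them the 3 stood at 1.18, 1.14 and 0.93. Cst7 had 1 UMI in control members and 10 in other control cells, and Pla2g7 0 and 1, too few to read. P2ry12 was at 0.89 (0.80 to 0.99), and at 0.97 (0.87 to 1.08) without the Ttr-rich cells. Cd74 was at 0.25 (0.07 to 0.65) in control members from 4 UMIs, at 0.28 (0.08 to 0.73) without the Ttr-rich cells, and at 1.56 in cKO members. At the cKO limit of 6.764 per 10000, 33 control cells (6.46%) would be members. Depth differs between the libraries and they are 1 library each, so the genotypes are set side by side without comparison.

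In 5xFAD forebrains, genes named from the members were read in a fit over all genes. Total counts ran from 16658707 to 22355512 per library. Of 16956 genes tested with edgeR's quasi-likelihood test (two-sided, Benjamini-Hochberg adjusted p under 0.05), 47 fell (0.277%) and 9 rose (0.0531%) in cKO. Whether every library is its own mouse is not in the labels, and p-values reflect the variation among these libraries. Bulk tissue cannot tell fewer microglia from less RNA per cell. Of the 10 microglia markers 7 fell, with a median log2 change of -0.59. Of 19 tested genes that were at least 1.5-fold higher in members, 1 fell and 0 rose, and of 48 that were lower, none passed in either direction.

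The 1 gene was Cst7. Its CPM in control forebrains ran from 10.4 through a median of 13.5 to 22.3, and in cKO forebrains from 2.31 through 3.28 to 4.62, so the groups did not overlap. The means were 14.6 ± 4.38 (SD, n = 6) and 3.39 ± 0.86 (SD, n = 7), a log2 change of -2.10 (SE 0.18, edgeR adjusted p = 3.70e-06). Cst7 was thus higher in Apoe-high cells within the cKO microglia library and lower in cKO than control forebrain. The forebrains are of 5xFAD mice and the sorted cells are not.

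Among genes followed in every comparison, Trem2 fell from 28.5 ± 4.18 (SD, n = 6) to 14.6 ± 1.36 CPM (SD, n = 7), a log2 change of -0.96 (SE 0.09, edgeR adjusted p = 7.74e-07), without overlap between groups. Cx3cr1, the locus of the CreER insertion, fell from 63.1 ± 2.99 to 24.4 ± 2.99 CPM (log2 change -1.37, SE 0.07, edgeR adjusted p = 5.03e-11), again without overlap. P2ry12 fell from 39.2 ± 3.78 to 27.2 ± 3.99 CPM (log2 change -0.52, SE 0.09, edgeR adjusted p = 0.00414), and the groups overlapped. Ccl3 was at 2.06 ± 0.38 CPM in control and 0.91 ± 0.51 CPM in cKO forebrains, and did not pass (log2 change -1.18, SE 0.28, edgeR adjusted p = 0.0836). It passed with DESeq2 (adjusted p = 0.0157) and without cKO replicate 5 (edgeR adjusted p = 0.00466), and leaving out other libraries 1 at a time gave adjusted p up to 0.233. Lyz2 did not pass, with 23.2 ± 5.14 CPM in control and 28.8 ± 3.42 in cKO forebrains (log2 change 0.32, SE 0.11, edgeR adjusted p = 0.503). Control replicate 5 stood apart at 33.4 CPM, and without it the edgeR adjusted p of Lyz2 was 0.0129, the lowest over all libraries left out (highest 0.744). Cd63 was at 52.6 ± 4.28 and 52.0 ± 5.33 CPM (log2 change -0.02, edgeR adjusted p = 0.962) and Lpl at 34.4 ± 3.48 and 31.1 ± 3.84 CPM (log2 change -0.14, edgeR adjusted p = 0.688). Ccl4 and Mt2 were below the filter on low counts.

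The lists divided in another way in forebrain than in the cells. Of 28 disease-associated genes tested 8 fell and 0 rose (median log2 change -0.14), and of 25 homeostatic genes 9 fell and 0 rose (median -0.34), while among all genes 0.277% fell. Of 35 lysosomal genes 7 fell, and none of 23 interferon, 15 chemokine or 18 LXR genes passed in either direction. In the cells the disease-associated and homeostatic lists had medians of opposite sign, and in forebrain both had fallen members and no risen ones. These are unlike comparisons, and 7 of the 10 microglia markers fell in forebrain as well.

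**Figure D5:**
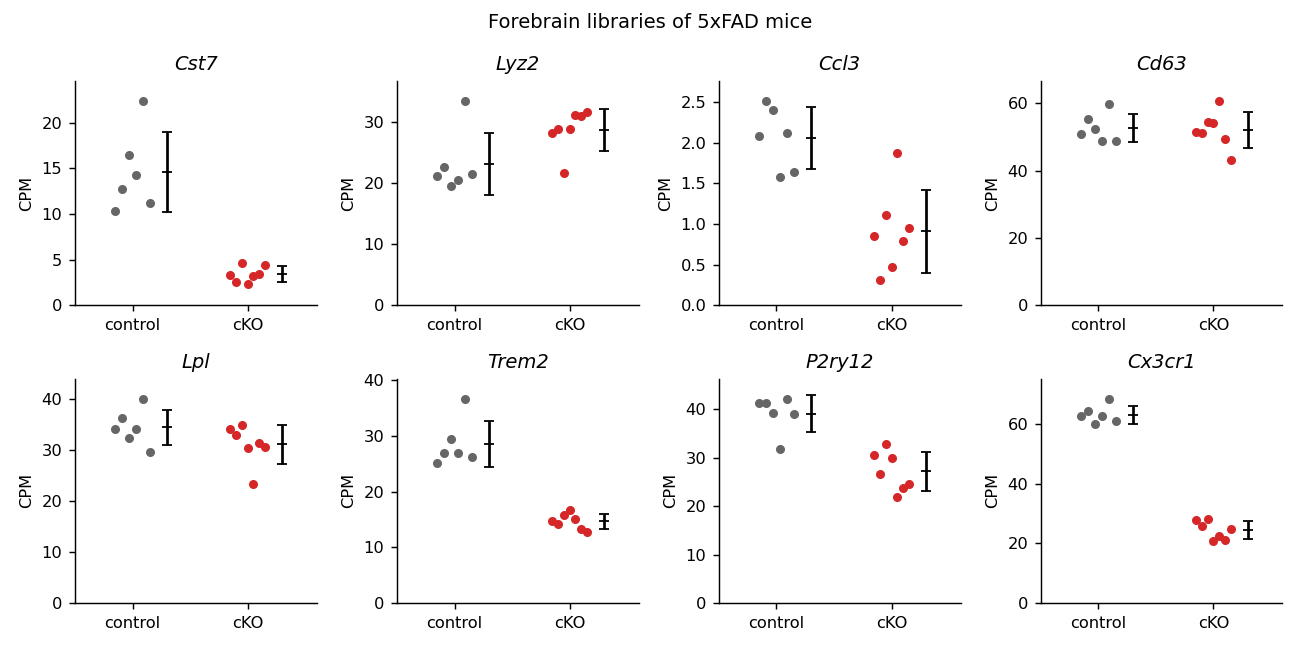
CPM in each forebrain library of 5xFAD mice (points, 6 control and 7 cKO) with mean and SD to the right of each group, for 8 genes. Cst7, Trem2 and Cx3cr1 do not overlap between groups, Cd63 stands near 52 CPM in both, and 1 control library of Lyz2 lies at 33.4 CPM.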

How the data were processed

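Per the file headers, Cell Ranger 6.1.0 gave the authors' deposited UMI counts for each gene in each cell. The libraries were 10x Genomics, per the labels, and Seurat and mm10 appear in the submitters' processing notes. For the forebrains the authors deposited read counts for each gene, for which those notes name HISAT2 2.0.5, featureCounts 1.5.0-p3 and the mm10 build. How counting treated strand is not given in the sources used here, and overlapping genes cannot be told apart. CPM here are counts scaled to 1000000. The members and gene lists were chosen with earlier results of these data known.

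UMIs were summed over members and over other eligible cells, without Apoe, and given as CPM. Ratios have exact conditional intervals and shares Clopper-Pearson intervals, all at 95%. Genes were compared from 10 CPM over all eligible cells. Named were the 15 genes with the highest lower bound and the 10 with the lowest upper bound of the ratio's interval, without mitochondrial, ribosomal and unnamed genes, the 2 highest and 2 lowest of a list, and 10 genes followed throughout. The same rule, with at least 10 UMIs for higher genes, named those of the highest 72 members. Clusters used 2000 variable genes, 30 principal components, 15 neighbours and Leiden resolution 0.5 (leidenalg 0.10.2). Python 3.11.15 with SciPy 1.17.1 was used.

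Bulk counts were tested on genotype with edgeR 4.0.16 in R 4.3.3 (filterByExpr, TMM, robust quasi-likelihood F-test), with DESeq2 1.42.0 as an alternative. Of 54532 genes 16956 were tested. Both procedures were tested on simulated data. Gene positions are from GENCODE M21 on GRCm38, promoter sequences from RefSeq on GRCm38.p6.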

Additional observations from a re-analysis of the deposited data

Results flagged for a closer look

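Cd74 and C1qa were flagged because their ratios of Apoe-high to other cells lay on opposite sides of 1 in the control and cKO libraries. Their intervals excluded 1, and neither difference was tested. How many genes counting error alone would flag is not given, so the number flagged is not read as a result. Cd74 had a ratio of 0.249 (0.067 to 0.650) in Apoe-high cells of the control library, from 4 UMIs in members (0.281 without the Ttr-rich cells), and 1.56 (1.32 to 1.83) in the cKO library. C1qa, a subunit of complement C1q, had a ratio of 0.915 (0.856 to 0.977) in the control library and 1.04 (1.03 to 1.05) in the cKO library. Without the 5 Ttr-rich control members the C1qa ratio was 1.02 (0.957 to 1.09), so the opposite direction was not seen.

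In forebrain, 1 library stood far from the others of its group for 4 genes. Control replicate 5 was highest for Lyz2 (33.4 CPM), Trem2 (36.6 CPM) and Spata1 (2.98 CPM). In cKO, replicate 3 was lowest for Lyz2 (21.7 CPM) and replicate 5 for Lpl (23.3 CPM). These are 5 of 82 groups of libraries looked at, and chance gives about 1 in 20 groups.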

How the results depend on the processing

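Counts of genes at least 1.5-fold higher and lower in members were 23 and 50. They were 65 and 244 with the top 5% as members, 12 and 5 with the top 20%, 46 and 138 from 5000 UMIs, 82 and 308 with each cell thinned to 2000 UMIs, 8 and 6 from 20 CPM, and 64 and 123 from 5 CPM. Median-ratio scaling gave 33 and 26. The other alternatives stayed within 1.5 times. The cause of these shifts was not tested. Thinning and fewer members leave fewer UMIs behind each ratio, and depth limits all genes near 10 CPM. Among named genes with an interval excluding 1, and lists with a median of at least 0.1 in size, the values that changed sign were the interferon median (-0.010 from 5000 UMIs), the border macrophage median (-0.11 without cells holding at least 2 such markers, -0.088 from 20 CPM) and the Ttr ratio (0.68 without cells holding markers of other types, 0.76 without Ttr-rich cells). Of 17 lists with medians nearer 0, 11 changed sign under at least 1 alternative, among them LXR targets (-0.05 to 0.10) and the Apoe gene cluster (-0.11 to 0.30). Cdkn1a (0.83 to 1.11) and Atg7 (0.84 to 1.11) also lay on both sides of 1. The cluster holding most members held 36.6% of them, 89.8% at Leiden resolution 0.3 and 22.9% at resolution 1. In control members 8 to 11 of the 15 named genes were higher.

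Forebrain genes that fell were 47, and 30 to 50 when 1 library was left out. Genes that rose were 9, with 3 to 23 when 1 library was left out, 23 with DESeq2 and 23 from 1 count in total. The lowest counts of fallen genes came without control replicate 5 (30), cKO replicate 3 (31) and cKO replicate 6 (31). Replicate numbers did not pair the libraries: over 6 pairs the correlation of deviations ran from -0.257 to 0.158, and 1 pair correlated best with its own number. With the replicate block 19 fell and 1 rose, and P2ry12 no longer passed (edgeR adjusted p = 0.113). The cause was not tested.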

Other observations

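Among further lists, read beside the 34.1% of all genes higher in members, some antigen presentation and iron or oxidant handling genes were higher. Of 11 measured MHC class I genes 8 were higher in members, led by the classical heavy chains H2-D1 (697 against 570 CPM, ratio 1.22, 1.18 to 1.27) and H2-K1 (512 against 427 CPM, ratio 1.20, 1.14 to 1.26), which reached 2.04 and 1.77 in the highest 72 members. Tap2, a subunit of the peptide transporter, was at 0.94 (0.82 to 1.06). Of 17 measured NRF2 targets 11 were higher (16 under median-ratio scaling), led by heme oxygenase Hmox1 at 1.33 (1.10 to 1.60) and the ferritin heavy chain Fth1 at 1.26 (1.24 to 1.28). Gsr, glutathione reductase, was at 0.88 (0.72 to 1.06). Phagocytic receptors were mixed, 4 of 14 higher, with the activating Fc receptor gene Fcgr4 at 1.53 (1.15 to 2.00) and the bridging protein gene Mfge8 at 0.77 (0.55 to 1.07).

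Proliferation genes showed little difference over all members. Summed over the list's 17 genes, the 5 grades of the Apoe share stood at 431, 500, 531, 395 and 315 CPM, without the Ttr-rich cells. Of the 349 cells in cluster 3, led by proliferation genes, 15.5% were members (11.8 to 19.7), beside 10% of all eligible cells. Mki67, the proliferation antigen gene, stood at 10.8 CPM in all members and 11.8 CPM in other cells, a ratio of 0.92 (0.66 to 1.26). In the highest 72 members 7 of 8 measured cell cycle genes were lower, beside 61.4% of all genes that were not higher, and 8 of the list's 17 genes had no UMI there.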
